A study of Homo sapiens with 6 samples.

Results

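The interferon-stimulated genes examined here are a list of 43 genes that type I interferon induces in many cell types, matched to probe sets by name. The list was drawn up with earlier results of these data known, so its shares of called genes are a description. Of the 43 genes, 32 carried a name in the probe annotation used, out of 14884 named genes in all, each read by 1 probe set. The other 11 (STAT2, OAS1, OAS2, OAS3, MX1, PARP9, PARP14, CMPK2, IFI6, IFI27 and LGALS3BP) were not analysed here. The values are deposited log2 probe set values from GeneChip whole-transcript arrays, 1 per array. The cells were MDA-MB-231, a long-established line from a human breast carcinoma of the triple-negative type, in 2 groups of 3 arrays: NR1D1 KO cells (genotype NR1D1 KO, treatment H2O2) and control cells (genotype Control, treatment H2O2). Both groups spent 72 h in 200 µM hydrogen peroxide in DMEM with fetal bovine serum, so the comparison is between genotypes under peroxide and no untreated cells enter it. The labels give neither the way the knockout was made nor whether its cells are 1 clone, and the sample titles name them as biological replicates without saying whether they came from separate cultures, so the p-values cover the spread between these arrays, which may be technical. NR1D1 itself had no named probe set, so the knockout could not be checked on its own transcript.

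Interferon-stimulated genes carry out the antiviral state. Cells that sense viral RNA or DNA secrete interferon, which binds its receptor, activates the kinases JAK1 and TYK2 and leads to a complex containing IRF9 that binds interferon-stimulated response elements (ISREs) in promoters. Many of the genes are also expressed at a basal level without infection. NR1D1 encodes REV-ERBα, a heme-binding nuclear receptor that represses transcription and belongs to the circadian clock.

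The 6 arrays were alike in overall level, with medians over all probe sets between 5.18 and 5.22 (log2). Correlations between arrays were 0.985 to 0.988 within groups and 0.980 to 0.984 between them, and a gene's log2 change had a standard error of 0.101 in the median. The mesenchymal markers of the line were bright, with VIM, CD44, AXL, EGFR and MSN averaging 9.35 to 12.03 on NR1D1 KO arrays and 9.01 to 11.88 on control arrays. The oestrogen and progesterone receptor genes ESR1 and PGR stood at 5.19 and 4.05 on NR1D1 KO arrays. On control arrays they stood at 5.19 and 3.99, again near or below the array medians. Of the same luminal list, FOXA1 stood at 4.96 on NR1D1 KO arrays and 5.05 on control arrays. GATA3 (6.75 and 7.48) and EPCAM (7.62 and 7.22, in the same order) lay above every array's median. Among the markers named, VIM, EPCAM and KDR were called higher in NR1D1 KO cells and CD44 and GATA3 lower, and their part in the results below was not tested. Of the fixed leukocyte markers CD14 alone was named, at 4.66 on NR1D1 KO arrays and 4.95 on control arrays, below every array's median. The endothelial marker KDR stood above every array's median, at 6.475 on NR1D1 KO arrays and 5.97 on control arrays. PECAM1 (4.95 and 5.11) and VWF (5.03 and 5.105), of the same list, averaged below the medians. Of the fibroblast list, LUM averaged 5.39 and 5.265, above the medians, and DCN 2.59 and 2.57, in the same order. Each array reads the RNA of a whole culture, where fewer cells that express a gene and less of its RNA per cell cannot be told apart.

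Interferon-stimulated genes changed in both directions in the knockout cells. Of the 32 measured, 5 fell (BST2, OASL, HERC6, IFIT3 and IFIT2), 3 rose (SP110, RSAD2 and SAMD9L) and 24 did not pass the test, which was limma at an adjusted p under 0.05 (Benjamini-Hochberg, all 14884 genes). The 8 called genes are 25% of those measured, beside 9.49% of all genes called. The 5 falls are 15.6% of the list, beside 4.74% of all genes called lower, and the 3 rises 9.38%, beside 4.74% called higher. The called changes were small, with falls of 1.35-fold (IFIT2) to 1.68-fold (BST2) and rises of 1.40-fold (SAMD9L) to 1.55-fold (SP110). The median log2 change of the 32 genes was -0.13, beside 0.0039 over all genes tested, and 21 of the 32 lay below 0. The 3 knockout values all lay below the 3 control values for 12 of the 32 genes (37.5%, beside 13.6% of all genes), and all above them for 5 (15.6%, beside 15.1%).

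**Figure D1:**
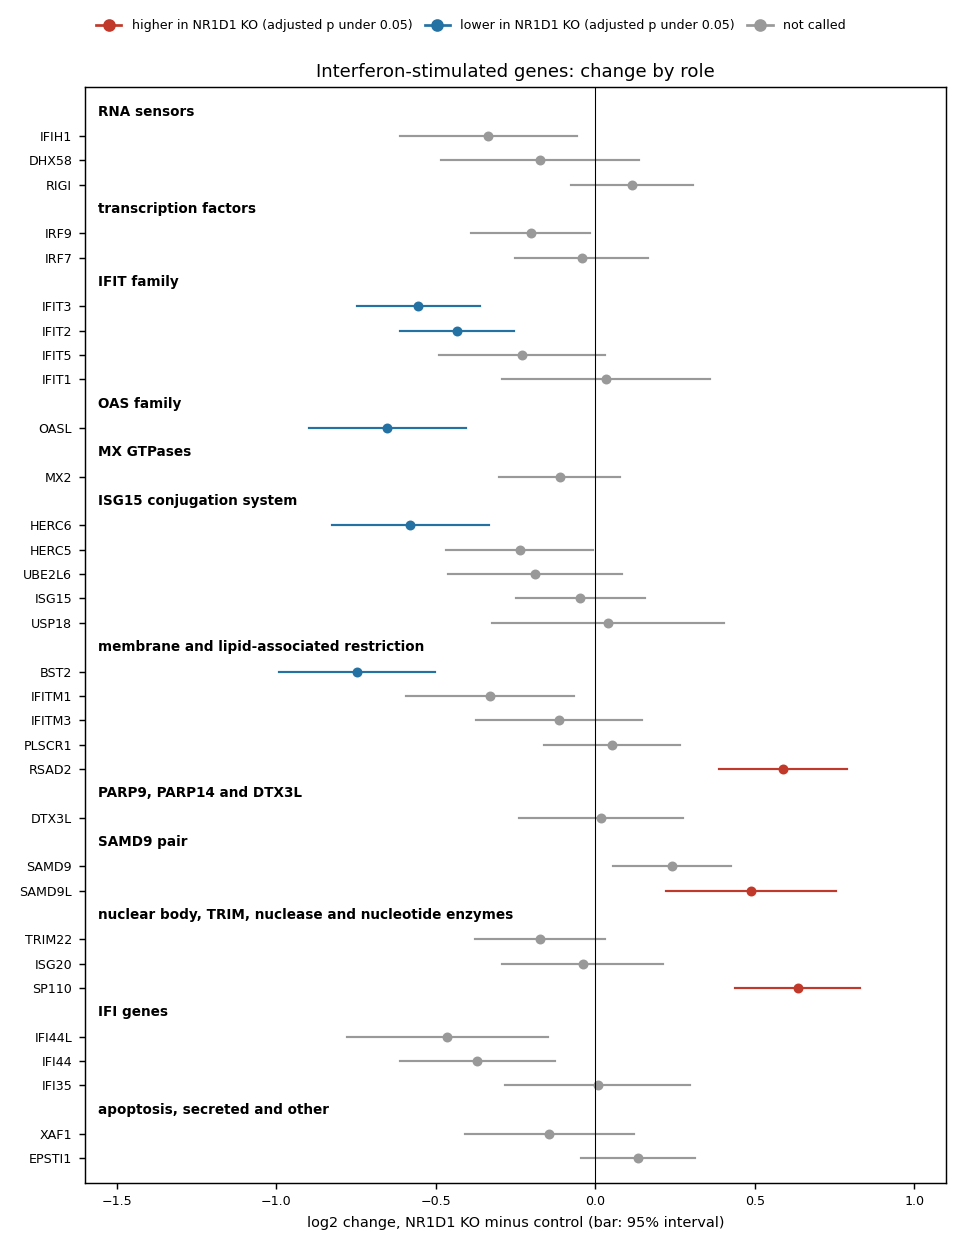
Log2 change (NR1D1 KO minus control, x axis) of the 32 measured interferon-stimulated genes, grouped by role down the page, with a point for the change and a bar for its 95% interval. The 5 called falls run from -0.43 (IFIT2) to -0.75 (BST2), the 3 called rises from 0.49 (SAMD9L) to 0.63 (SP110), and grey genes did not pass the test.

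Among proteins that act at membranes, BST2 fell and RSAD2 rose. BST2, which encodes tetherin, the tether that holds budding virus particles at the cell surface, measured 7.15, 7.38 and 7.31 on NR1D1 KO arrays, against 7.87, 8.18 and 8.03 on control arrays (log2). The groups lay 0.49 apart at their nearest values, with all knockout arrays low. The fall was 0.75 ± 0.11 (SE) on the log2 scale, or 1.68-fold, with a limma adjusted p of 0.00415, and 14 of 14 alternative settings kept it past the threshold. RSAD2, which encodes viperin, the radical SAM enzyme that makes a chain-terminating nucleotide and sits on the endoplasmic reticulum and lipid droplets, measured 6.26, 6.43 and 6.35 on NR1D1 KO arrays, against 5.87, 5.70 and 5.72 on control arrays. All knockout arrays were above all control arrays, by 0.59 ± 0.088 (SE) in the mean on the log2 scale (limma adjusted p = 0.00491). Of the 20 nearest named protein-coding genes around RSAD2, 10 on each side, 16 lay above 0 with a median log2 change of 0.12, and around BST2 4 of 20 lay above 0 with a median of -0.087. Whether the neighbourhood has a part in either change was not tested.

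IFITM1, which encodes a transmembrane protein that restricts virus entry, measured 7.65, 7.84 and 7.78 on NR1D1 KO arrays and 7.98, 8.32 and 7.96 on control arrays. The groups did not overlap, but control replicate 2 stood 0.34 above the next control array, and the gene missed the threshold (log2 change -0.33 with a 95% interval of -0.59 to -0.065, limma adjusted p = 0.127). Its close relative IFITM3 differed by -0.11 (adjusted p = 0.625), and the phospholipid scramblase gene PLSCR1 by 0.052 (adjusted p = 0.803). The IFITM genes are similar to each other in sequence, and how far their probes keep them apart is not given in the sources used here.

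Of the antiviral IFIT family, whose genes lie side by side on chromosome 10, IFIT3 and IFIT2 fell. IFIT3 measured 8.50, 8.68 and 8.61 on NR1D1 KO arrays, against 9.11, 9.22 and 9.12 on control arrays. IFIT2 measured 8.14, 8.12 and 8.21 on NR1D1 KO arrays, against 8.54, 8.57 and 8.65 on control arrays. Neither gene's groups overlapped, and the range within a group was at most 0.17. The log2 changes were -0.55 ± 0.084 (SE, limma adjusted p = 0.00518) for IFIT3 and -0.43 ± 0.078 (adjusted p = 0.0118) for IFIT2. Without control replicate 3 IFIT2 missed the threshold (adjusted p = 0.0589) at a log2 change of -0.40.

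The other IFIT genes did not pass. IFIT1, the member that binds the cap directly, measured 7.26, 7.36 and 7.82 on NR1D1 KO arrays and 7.45, 7.51 and 7.38 on control arrays. The ranges overlapped, with knockout replicate 3 highest of all 6 arrays and knockout replicate 1 lowest, and the interval of the change ran from -0.29 to 0.36 around 0.035 (limma adjusted p = 0.922). IFIT5 differed by -0.23, with an interval of -0.49 to 0.031 (adjusted p = 0.283). Whether IFIT1 and IFIT3 changed by different amounts was not tested. Of the 20 nearest named genes around IFIT3, which include other IFIT genes, 11 lay above 0, with a median log2 change of 0.017. Whether the neighbourhood has a part in the falls was not tested.

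The promoters of members that fell, rose or did not pass are shown to compare the element that the interferon-activated complex binds. The core searched was GAAANNGAAA, on both strands, in RefSeq windows (GRCh38.p14) from 250 bases before to 50 after each annotated start, where overlapping matches were all counted. At least 1 window held it for 24 of 35 listed genes with a window (68.6%), beside 1195 of 27305 genes in the table (4.38%). Each run below ends at the last base before the start site and is written 5′ to 3′ on the gene's strand, with matches on either strand in capitals.
BST2 promoter (chr19:17405631-17405770, minus strand): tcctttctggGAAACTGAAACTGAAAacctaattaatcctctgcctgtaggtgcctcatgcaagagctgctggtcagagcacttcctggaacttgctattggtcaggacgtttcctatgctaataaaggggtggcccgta
IFIT3 promoter (chr10:89327831-89327996, plus strand): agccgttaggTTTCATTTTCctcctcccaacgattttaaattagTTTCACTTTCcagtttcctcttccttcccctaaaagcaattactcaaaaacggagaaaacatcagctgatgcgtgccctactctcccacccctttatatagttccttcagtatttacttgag
RSAD2 promoter (chr2:6877622-6877776, plus strand): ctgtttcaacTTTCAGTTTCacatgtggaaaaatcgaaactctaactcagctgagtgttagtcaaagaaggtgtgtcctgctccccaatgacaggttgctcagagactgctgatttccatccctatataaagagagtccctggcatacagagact
IFIT1 promoter (chr10:89392497-89392622, plus strand): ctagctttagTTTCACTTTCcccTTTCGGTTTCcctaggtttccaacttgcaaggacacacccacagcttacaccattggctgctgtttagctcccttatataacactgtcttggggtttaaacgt
ISG15 promoter (chr1:1013374-1013496, plus strand): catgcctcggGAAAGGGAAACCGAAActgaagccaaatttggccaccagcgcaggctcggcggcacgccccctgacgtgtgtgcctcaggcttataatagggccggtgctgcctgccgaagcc
In the windows shown, BST2 and ISG15 each held 2 overlapping copies, IFIT3 and IFIT1 each held 2 separate copies and RSAD2 held 1. IFIT3 and RSAD2 had 2 windows each, and the window with the most matches before the start was shown. BST2 and IFIT3 fell, RSAD2 rose, and IFIT1 and ISG15 did not pass. Among measured genes with a window the core was found in 2 of 3 that fell, 1 of 3 that rose and 14 of 19 that did not pass. Sets of 3 genes are too small to tell whether the share with the core differs between them. IFIT2 and OASL, which also fell, had no window. SP110, SAMD9L and HERC6 held no match in these windows. REV-ERBα binds the half-site AGGTCA when an A/T-rich stretch precedes it. The 6 letters alone were found for 1 of 25 measured genes with a window (IRF9), beside 14.9% of tested genes with a window. The search did not ask for the A/T-rich stretch, and binding was not tested.

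**Figure D2:**
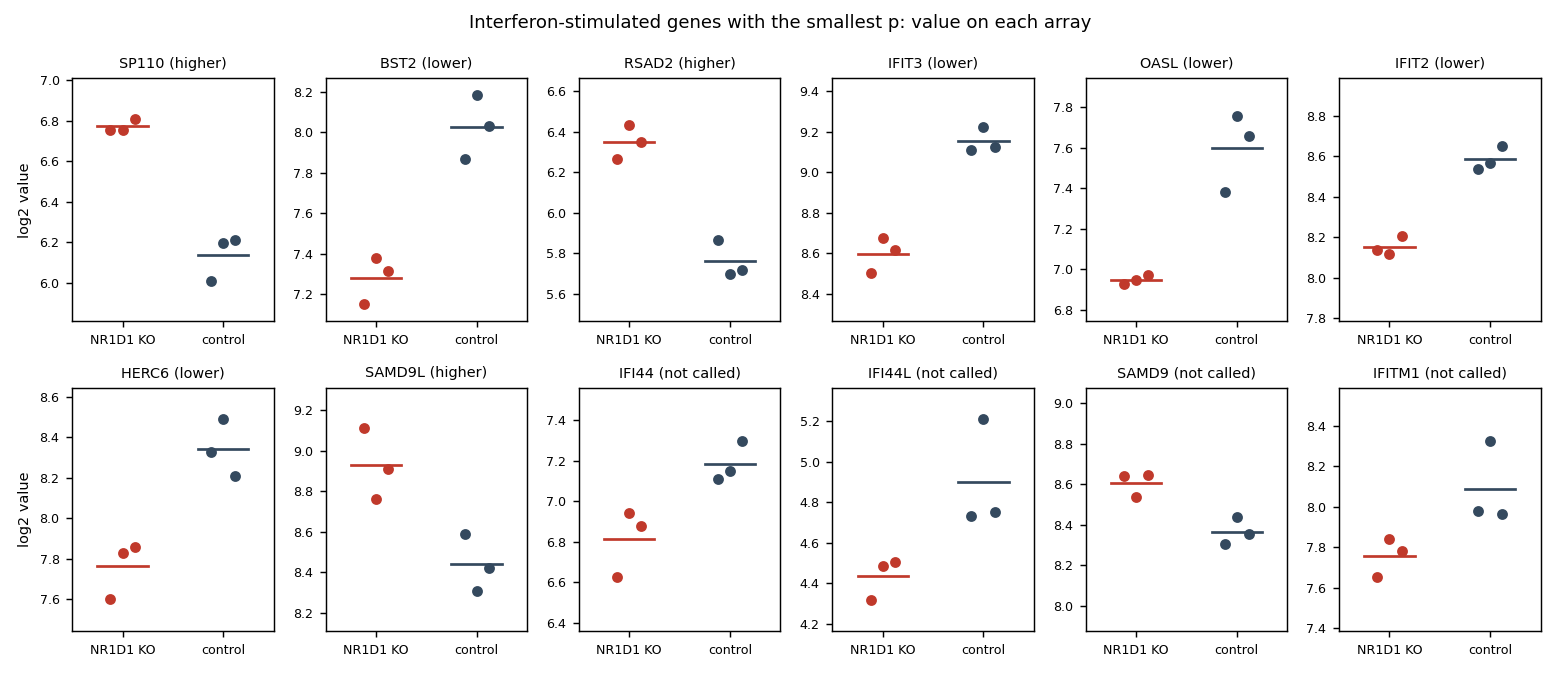
Log2 value (y axis, every panel spans the same log2 distance) on each array of the 12 interferon-stimulated genes with the smallest p, with NR1D1 KO arrays left, control arrays right, 1 point per array in replicate order and a line for each group's mean. No panel has overlapping groups, and the gap is widest for BST2 among the falls and for SP110 among the rises, while IFI44, IFI44L, SAMD9 and IFITM1 in the lower row did not pass the test.

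OASL was the measured member of the oligoadenylate synthetase family and fell. It encodes a relative of the synthetases that lacks their enzymatic activity, carries ubiquitin-like domains and enhances RNA sensing through RIG-I. OASL measured 6.93, 6.95 and 6.97 on NR1D1 KO arrays, against 7.38, 7.76 and 7.66 on control arrays. The knockout arrays agree within 0.047, whereas the control arrays spread over 0.38 with replicate 1 lowest, and the groups stayed apart. The log2 change was -0.65 ± 0.11 (SE), a fall of 1.57-fold (limma adjusted p = 0.00779), and it passed under 14 of 14 alternatives. Around OASL on chromosome 12, 4 of the 20 nearest named genes lay above 0, with a median log2 change of -0.092.

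Of the genes grouped here with the system that attaches the ubiquitin-like ISG15 to proteins, HERC6 fell and the modifier itself did not pass. HERC6, which encodes a HECT-domain ligase that is a close relative of the human ISG15 ligase HERC5, measured 7.60, 7.83 and 7.86 on NR1D1 KO arrays, against 8.33, 8.49 and 8.21 on control arrays. The lowest control array stood 0.35 above the highest knockout array. Its log2 change was -0.58 ± 0.11 (SE), or 1.49-fold lower (limma adjusted p = 0.0131). HERC5, its neighbour on chromosome 4, measured 7.91, 8.02 and 8.06 on NR1D1 KO arrays and 8.14, 8.42 and 8.15 on control arrays, a log2 change of -0.24 that missed the threshold (adjusted p = 0.208).

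ISG15 measured 8.05, 7.86 and 8.08 on NR1D1 KO arrays and 8.07, 8.06 and 8.002 on control arrays. These ranges overlapped, and the interval of its log2 change, -0.25 to 0.15, leaves out a 1.5-fold change in either direction. UBE2L6, the conjugating enzyme for ISG15, differed by -0.19 (limma adjusted p = 0.409). USP18, which removes ISG15 and restrains the interferon receptor, differed by 0.039 (adjusted p = 0.922), with a wider interval of -0.32 to 0.40.

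SP110 and SAMD9L were the other genes that rose. SP110, which encodes a nuclear body protein of the SP100 family, measured 6.75, 6.76 and 6.81 on NR1D1 KO arrays, against 6.01, 6.20 and 6.21 on control arrays. Knockout arrays were all high and close together, and the rise of 0.63 ± 0.086 (SE) on the log2 scale, or 1.55-fold, had the smallest limma adjusted p of the list (0.00306). It passed in 14 of 14 alternatives. Its family member SP100, which is in another list here, did not pass, at 8.19 ± 0.028 on NR1D1 KO arrays and 8.18 ± 0.020 on control arrays (SD, n = 3 each, limma adjusted p = 0.976).

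SAMD9L, which encodes a growth-restraining antiviral factor that poxviruses counter, measured 9.11, 8.76 and 8.91 on NR1D1 KO arrays, against 8.59, 8.31 and 8.42 on control arrays. The groups did not overlap, though the lowest knockout array stood 0.17 above the highest control array. The log2 change was 0.49 ± 0.12 (SE, limma adjusted p = 0.0346), and it missed the threshold without knockout replicate 1 (0.0872), knockout replicate 3 (0.083), control replicate 2 (0.110) or control replicate 3 (0.105). Its paralog and neighbour on chromosome 7, SAMD9, measured 8.64, 8.54 and 8.65 on NR1D1 KO arrays and 8.31, 8.44 and 8.35 on control arrays. That is a log2 change of 0.24 without overlap, short of the threshold (adjusted p = 0.110).

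The sensors of cytosolic RNA did not pass. IFIH1, which encodes MDA5, the sensor of long double-stranded RNA, measured 6.16, 6.50 and 6.56 on NR1D1 KO arrays and 6.65, 6.85 and 6.73 on control arrays. The groups did not overlap, knockout replicate 1 was 0.34 below the next knockout array, and the log2 change of -0.33 had an interval of -0.61 to -0.058 (limma adjusted p = 0.138). RIGI, the sensor of RNA with a 5′ triphosphate, was at 9.79 ± 0.027 on NR1D1 KO arrays and 9.67 ± 0.10 on control arrays (SD, n = 3 each, adjusted p = 0.473), and DHX58, which encodes the regulatory helicase LGP2, differed by -0.17 (adjusted p = 0.510).

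The measured transcription factors of the list did not pass either. IRF9, the DNA-binding part of the complex that recognises ISREs, measured 6.54, 6.52 and 6.41 on NR1D1 KO arrays and 6.71, 6.62 and 6.75 on control arrays, a log2 change of -0.20 without overlap (limma adjusted p = 0.184). IRF7, which amplifies interferon production, differed by -0.043 with an interval of -0.25 to 0.17 (adjusted p = 0.840).

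IFI44 and IFI44L, adjacent genes on chromosome 1, were the nearest to the threshold among genes that missed it. IFI44 measured 6.63, 6.94 and 6.88 on NR1D1 KO arrays and 7.11, 7.15 and 7.30 on control arrays, with a log2 change of -0.37 (limma adjusted p = 0.0687). IFI44L measured 4.32, 4.49 and 4.51 on NR1D1 KO arrays and 4.74, 5.21 and 4.75 on control arrays, with a log2 change of -0.46 (adjusted p = 0.0765). Neither gene's groups overlapped, and control replicate 2 of IFI44L stood 0.46 above the next array. IFI44L was the dimmest member, at the 20.6th percentile of all genes. Their 20 nearest named genes had median log2 changes of -0.22 and -0.18, with 7 above 0 in each case.

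The other measured genes all missed the test, with log2 changes between -0.17 (TRIM22) and 0.13 (EPSTI1). TRIM22, which encodes an antiviral ubiquitin ligase, was at 5.48 ± 0.095 on NR1D1 KO arrays and 5.65 ± 0.087 on control arrays (SD, n = 3 each), without overlap. EPSTI1 was at 5.71 ± 0.057 on NR1D1 KO arrays and 5.58 ± 0.045 on control arrays, also without overlap and in the other direction. The 95% intervals of the dynamin-like GTPase gene MX2, the RNA exonuclease gene ISG20, the apoptosis gene XAF1, the ubiquitin ligase gene DTX3L and IFI35 all included 0.

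**Figure D3:**
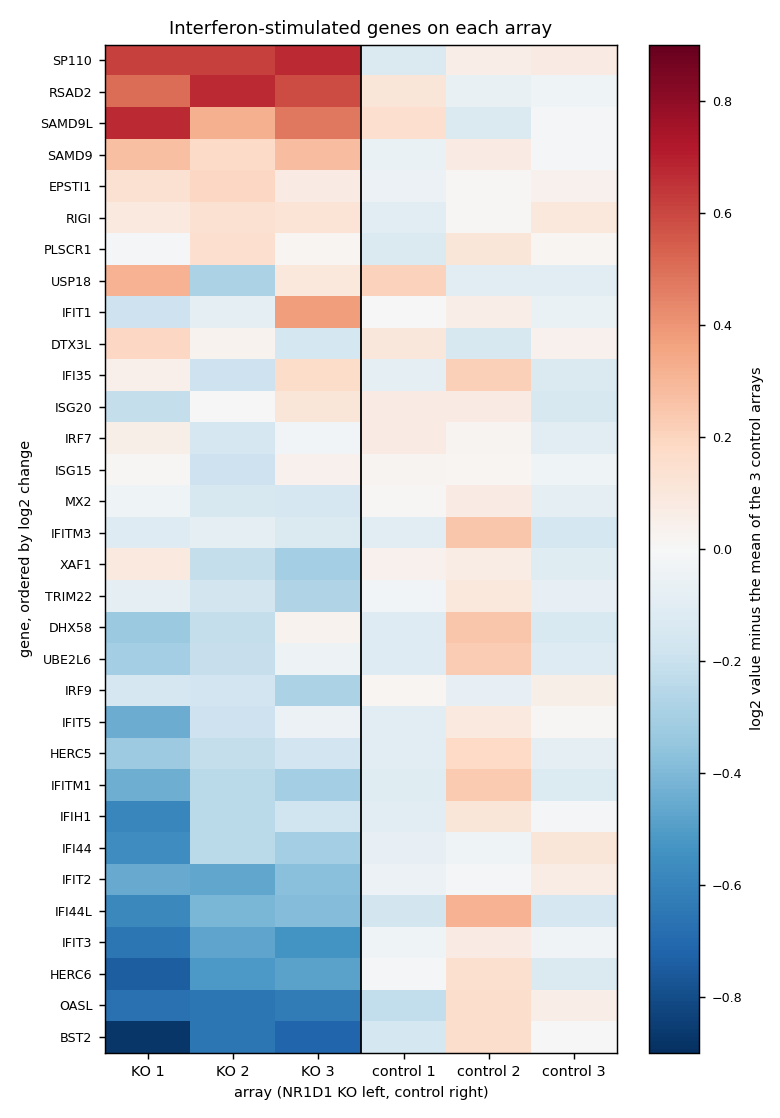
Log2 value of each measured interferon-stimulated gene (rows, ordered by log2 change) minus its mean over the 3 control arrays, as colour, for the 3 NR1D1 KO arrays left and the 3 control arrays right of the line. Rows at the top and bottom keep 1 colour across the knockout arrays, while control replicate 2 is above the control mean for 25 of the 32 genes.

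Averaged over the 32 genes, the level was 7.08, 7.10 and 7.15 on NR1D1 KO arrays, against 7.19, 7.31 and 7.19 on control arrays. Every knockout array was below every control array, but control replicate 2 stood further above the other control arrays than these stood above the knockout array nearest to them. Without control replicate 2 the list's median log2 change was -0.063, beside -0.13 with all arrays. The list's calls depended on it less, since without it 5 genes fell and 2 rose.

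Further lists held genes that bring interferon to its targets and other interferon-induced genes, and 37 of their 77 genes had named probe sets. Of these 37, 22 were other interferon-induced genes. In all, 12 of the 37 fell and 1 rose, where 4.74% of all genes were called in each direction. Of the 12 falls, 8 were among the other interferon-induced genes. The median log2 change of the 37 genes was -0.082. The falls numbered 7 without knockout replicate 2, 6 when either control replicate 2 or control replicate 3 was left out, and leaving out knockout replicate 1 gave 3 rises. None of the 10 listed interferon genes was named, and neither were the receptor genes IFNAR1 and IFNAR2, so the start of the pathway was not analysed here. JAK1, the kinase shared by the type I, II and III interferon receptors, fell the furthest. It measured 9.48, 9.70 and 9.66 on NR1D1 KO arrays, against 10.60, 10.58 and 10.62 on control arrays. Control arrays agree within 0.043 and all knockout arrays stood at least 0.88 lower, a fall of 0.99 ± 0.087 (SE) on the log2 scale, or 1.98-fold (limma adjusted p = 0.000383), which passed in 14 of 14 alternatives. Its partner TYK2 differed by -0.13 (adjusted p = 0.392) and JAK2, which serves the interferon γ receptor, by 0.43 with an interval of 0.051 to 0.81 (adjusted p = 0.163), which passed without knockout replicate 1 (0.0387).

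IRF1, a transcription factor that interferon γ induces and that binds related elements, fell 1.37-fold, to 7.06 ± 0.075 on NR1D1 KO arrays, against 7.52 ± 0.062 on control arrays (SD, n = 3 each, limma adjusted p = 0.0114). It missed the threshold without control replicate 3 (0.0564). IFNGR2, a chain of the interferon γ receptor, fell 1.31-fold (adjusted p = 0.0299), and its partner IFNGR1 differed by -0.064 (adjusted p = 0.810). TRAF3, which relays RNA sensing from MAVS to TBK1, also fell 1.31-fold (adjusted p = 0.0268). IFNGR2 and TRAF3 missed the threshold in 6 of 14 alternatives each, namely with the replicate block and on leaving out any 1 control array, knockout replicate 3, or, for IFNGR2, knockout replicate 1 and, for TRAF3, knockout replicate 2, with adjusted p up to 0.0982 for IFNGR2 and up to 0.0924 for TRAF3.

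SOCS3, a feedback inhibitor of JAK kinases that interleukin 6 type cytokines induce, was the 1 rise. It measured 7.70, 7.96 and 7.93 on NR1D1 KO arrays, against 7.23, 7.18 and 7.12 on control arrays, a rise of 0.69 ± 0.096 (SE) on the log2 scale, or 1.61-fold (limma adjusted p = 0.00358). A second, dimmer probe set of SOCS3 differed by 0.29, and with both averaged the gene missed the threshold (adjusted p = 0.105). SOCS1, the main inhibitor of the interferon pathway in its family, differed by -0.15 (adjusted p = 0.387).

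Of 22 further interferon-induced genes 8 fell and none rose by limma, beside 4.74% of all genes called in each direction. PNPT1, which encodes a mitochondrial RNA-degrading enzyme, was higher by 0.40 on the log2 scale and missed the threshold (limma adjusted p = 0.0709). Its unadjusted p was under 0.05, and it passed in 5 of 14 alternatives, with adjusted p down to 0.0208. WARS1 was lower by 0.21 with an unadjusted p under 0.05 and passed in 0 of 14 (limma adjusted p = 0.2085). IRF2 (log2 change -0.22) and TBK1 (-0.34), of the other lists, also had an unadjusted p under 0.05. They missed the threshold (limma adjusted p = 0.1155 and 0.132) and passed in 2 and 1 of 14 alternatives. DDX60, which encodes a helicase that aids RNA sensing, measured 7.90, 7.92 and 7.83 on NR1D1 KO arrays, against 8.57, 8.87 and 8.74 on control arrays, or 1.80-fold lower (limma adjusted p = 0.00135). The chemokine genes CXCL11 and CXCL10, both ligands of the receptor CXCR3, were 1.70-fold (adjusted p = 0.00228) and 1.60-fold lower (adjusted p = 0.0332). CXCL10 was dim, at 3.91 ± 0.16 on NR1D1 KO arrays and 4.59 ± 0.31 on control arrays (SD, n = 3 each), and missed the threshold in 6 of 12 alternatives, 4 of them leaving out control replicate 1, control replicate 2, knockout replicate 1 or knockout replicate 2, with adjusted p up to 0.112. GBP3, of the interferon-induced guanylate-binding proteins, was 1.57-fold lower (limma adjusted p = 0.00692). Around GBP3 on chromosome 1, 5 of the 20 nearest named genes lay above 0, with a median log2 change of -0.19. Whether that neighbourhood has a part in the fall was not tested. The other 4 that fell were NMI, DDX60L, B2M and SLFN5, and NMI, B2M and SLFN5 each missed the threshold without at least 4 of the 6 arrays taken out in turn. The kinase gene EIF2AK2, which encodes the RNA-activated kinase PKR, differed by 0.14 (adjusted p = 0.422).

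**Figure D4:**
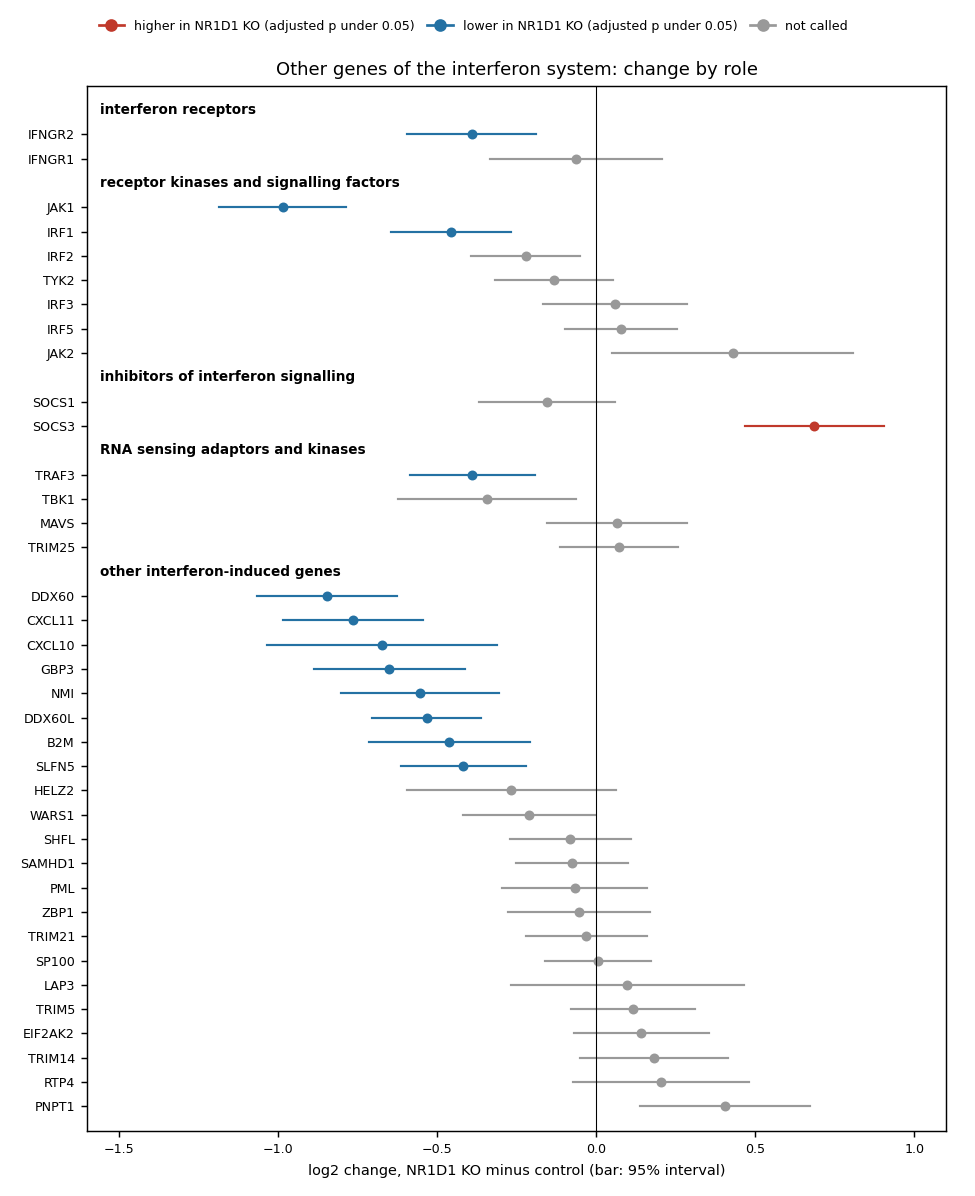
Log2 change (NR1D1 KO minus control, x axis) of the 37 measured genes from the further interferon lists, grouped by role down the page, with points for the change and bars for the 95% interval. JAK1 has the lowest change, at -0.99, SOCS3 alone is called higher, and 8 of the 22 other interferon-induced genes are called lower.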

How the data were processed

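The deposited table of the authors holds 1 log2 value per probe set and array for 53617 probe sets on 6 arrays. Its log2 scale was read from the range of the values. Total RNA was amplified with a GeneChip whole-transcript kit and labelled with biotin, per the labels' protocols, whereas no source used here gives the normalization or the software. Array medians lay between 5.18 and 5.22. The platform annotation named 16098 probe sets, and 37519 stayed unnamed. The highest-mean probe set stood for each of 14884 genes, with no filter on dim genes and no detection calls.

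Groups of 3 NR1D1 KO and 3 control arrays, from the labels, entered one linear model in limma 3.58.1 under R 4.3.3 (functions lmFit and eBayes, two-sided, Benjamini-Hochberg adjustment over all genes, threshold 0.05). The fit was tested on simulated data, and the outcome of that test is not given here. The labels do not say whether replicate numbers pair the arrays, so the model had no replicate term and a replicate block was an alternative. Deviations of same-numbered arrays correlated at -0.106 to 0.068, beside -0.128 to 0.079 for arrays with other numbers, which does not settle the pairing. The members, the role groups and the further lists were chosen with earlier results of these data known. The naming rule gave each called member and the 4 nearest to the threshold in full, at least 1 gene of each role and the called genes of the further lists, up to 4 a list by size. The shown promoters and the array values of IFIT1, HERC5 and ISG15 fall outside it. So do IFNGR1, TYK2, JAK2, IRF2, TBK1, SOCS1, PNPT1, WARS1, NMI, DDX60L, B2M, SLFN5, SP100 and EIF2AK2. All of these were chosen after their values were seen. Promoter windows are from RefSeq, GRCh38.p14. Figures used matplotlib 3.10.9. The number of arrays limits the precision.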

Additional observations from a re-analysis of the deposited data

How the results depend on the processing

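The 14 alternatives changed the scaling (quantiles or array medians), the filter on dim genes (the lowest 25% or 50% left out), the summary of probe sets (their average), limma's prior (trend, robust), the array weights, the replicate block, or the arrays used (each left out). SP110, BST2, RSAD2, IFIT3, OASL and HERC6 passed under all alternatives in which they were tested. With the replicate block 3 members rose and 5 fell, while 8 further interferon genes fell and 1 rose. There IFNGR2, TRAF3, SLFN5 and CXCL10 lost their calls. Leaving out 1 array gave 2 to 3 rises, 4 to 5 falls and median log2 changes of -0.183 to -0.063 over the members, with the lowest count of rises and falls set by SAMD9L and IFIT2. IFI44 passed without the dimmest 25% or 50% of genes and with the trend and robust prior, SAMD9 in the last 2 of these and IFITM1 without the dimmest 50%. The sign turned under at least 1 alternative for 9 members, none of them called: IRF7, IFIT1, ISG15, USP18, IFITM3, PLSCR1, DTX3L, ISG20 and IFI35. Over all genes the calls were 1412, and 723 to 1049 without 1 array.

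For the further interferon genes, which were rerun under these settings after the data had been seen, rises numbered 2 without the dimmest 25% or 50% of genes, with the trend and robust prior or with array weights, 0 with averaged probe sets and 1 to 3 without 1 array. Falls numbered 6 to 9 without 1 array, the fewest without control replicate 2 or control replicate 3. Causes were not tested. IFI44L and CXCL10 were dim, and with no detection calls their distance from background is not known here.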
